A study of Mus musculus with 2 samples.

Results

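The Mir17hg polycistron is a set of 6 miRNA precursors that are cut from 1 noncoding transcript on mouse chromosome 14: Mir17, Mir18, Mir19a, Mir20a, Mir19b-1 and Mir92-1. They were taken as the rows of the count tables whose Ensembl identifier, without its version, belongs to these precursors in GENCODE M21, and all 6 of them were found among the 1973 genes counted. The measured material was total RNA, size selected below 30 nt, of stomach from embryos of the mouse strain B6NCrl at 14.5 days of development. There was 1 group of 2 biological replicates, each labelled as a single stomach of 1 pup and each with a collection day of its own, while the labels also give the sex as male and female pooled. No genotype, treatment, age or tissue varied, so levels were compared between the precursors and, as a check of spread, between the libraries, where replicate and collection day cannot be told apart.

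A polycistronic miRNA transcript is cut by Drosha into separate hairpins, which Dicer cuts further into mature strands, so its members all start from the same RNA. Mir17hg is a target of Myc and E2F and is known for promoting proliferation and survival in embryonic tissues, and mice that lack it die at birth with small lungs and heart defects. Mature miRNAs find their targets mainly through the seed, bases 2 to 8. By seed, the members fall into the miR-17 family (Mir17 and Mir20a, known to repress Cdkn1a and Bcl2l11), the miR-18 family (Mir18, known to repress Ctgf), the miR-19 family (Mir19a and Mir19b-1) and the miR-92 family (Mir92-1, known to repress Itga5 in endothelium).

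The mature strands that define these families are shown, 5′ to 3′, because the seeds in capitals decide which members act as 1 family. The sequences are those of RefSeq on GRCm38.p6, where all 6 members were matched by symbol.
miR-17-5p of Mir17: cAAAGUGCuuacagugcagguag
miR-20a-5p of Mir20a: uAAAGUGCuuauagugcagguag
miR-18a-5p of Mir18: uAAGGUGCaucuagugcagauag
miR-19a-3p of Mir19a: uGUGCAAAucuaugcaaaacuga
miR-19b-3p of Mir19b-1: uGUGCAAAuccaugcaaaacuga
miR-92a-3p of Mir92-1: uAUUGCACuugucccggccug
miR-17-5p and miR-20a-5p have the same seed and differ at 2 of 23 bases. miR-18a-5p differs from miR-17-5p at 6 of 23 bases, 1 of them in the seed. miR-19a-3p and miR-19b-3p differ at 1 of 23 bases, outside the seed. The count tables give 1 value per precursor, and the 5p and 3p strands of a precursor cannot be told apart in them. The RNA was size selected below 30 nt, while the hairpins are 80 nt (Mir92-1) to 107 nt (Mir20a) long. The level of a precursor is therefore that of the short reads counted for it, and the hairpin RNA itself was not measured.

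The precursors span 836 bases of chromosome 14, from 115043671 to 115044506 on the plus strand of GRCm38 (mm10). All 6 lie within exon 2 of the annotated Mir17hg transcript, which runs from 115043271 to 115046727 and is 3457 nt long. In 5′ to 3′ order, Mir17 (ENSMUSG00000065508.1) occupies 115043671 to 115043754 and Mir18 (ENSMUSG00000065403.1) 115043851 to 115043946. Mir19a (ENSMUSG00000065416.1) follows at 115044000 to 115044081 and Mir20a (ENSMUSG00000065442.1) at 115044157 to 115044263. Mir19b-1 (ENSMUSG00000076256.1) lies at 115044305 to 115044391 and Mir92-1 (ENSMUSG00000076062.1) at 115044427 to 115044506. The gaps between neighbouring precursors are, in that order, 96 nt after Mir17, then 53, 75 and 41 nt, and 35 nt before Mir92-1.

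The gene total was 4679914 counts in replicate 2 against 5004548 in replicate 1, and levels are given as counts per 1000000 of that total (CPM), which are shares of the counted miRNA. In a whole organ, fewer cells that make a miRNA and less of it per cell cannot be told apart. Beside the polycistron, miRNAs that mark the tissue were present: smooth muscle markers totalled 155329 CPM, markers of epithelium 41460.4 CPM and of stratified epithelium 16628 CPM, while the endothelial marker Mir126a had 20389 CPM. Markers of mesenchyme totalled 15247 CPM and the gastric endocrine and epithelial marker Mir375 had 5115 CPM. Markers of other organs and cells were counted lower, at 1434 CPM for intestine, 579 CPM for leukocytes and 185 CPM for erythroid cells. Those of striated muscle had 106 CPM and that of liver 61.3 CPM. Of 7 striated muscle markers 6 were found by symbol among the genes counted and 3 were detected, Mir206, Mir208a and Mir208b. The rest, not counted or not detected, are gene copies of Mir1a and Mir133a. Of 4 neural markers 1 was detected, Mir137 at 1750.4 CPM. The other 3, gene copies of Mir124a, together held 0 counts in replicate 2 and 1 count in replicate 1. Reads that map to several places are counted for no gene. The totals of markers with several gene copies can thus be too low, and the counts of Mir124a do not show its absence.

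The 6 precursors held 3.55% ± 0.33 of all gene counts (SD, n = 2). Their summed level was 37875 CPM in replicate 2, from 177251 counts, and 33155 CPM in replicate 1, from 165928 counts, a mean of 35515 ± 3337 CPM. All 6 passed the minimum of 10 counts in both libraries that defined a detected gene, as did 361 of the 1973 genes. None of their counts fell on the strand opposite to the transcript in either library, where a count of 0 allows up to 3 counts, a level of 0.641 CPM for replicate 2 and of 0.599 CPM for replicate 1.

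The miR-17 family members led. Mir17 was counted at 22626 CPM in replicate 2 and 19135 CPM in replicate 1, a mean of 20880.1 ± 2469 CPM, and ranked 10th of all genes. Mir20a was counted at 8546 CPM in replicate 2 and 7437 CPM in replicate 1, a mean of 7992 ± 784 CPM, and ranked 24th. Together these 2 genes, which carry the same seed from the first and the fourth position of the transcript, reached 28872 ± 3253 CPM. Mir17 alone made up 59.7% of the cluster's counts in replicate 2 (95% exact binomial interval 59.5 to 60.0) and 57.7% in replicate 1 (57.5 to 57.9). Mir20a made up 22.6% in replicate 2 and 22.4% in replicate 1. These intervals, like all others here, cover counting error only, since the reads carry no molecular identifiers.

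Mir18, the sole miR-18 member of the transcript, was counted at 4176 CPM in replicate 2 and 4258 CPM in replicate 1, a mean of 4217 ± 57.8 CPM. It made up 11.0% of the cluster in replicate 2 (10.9 to 11.2) and 12.8% in replicate 1 (12.7 to 13.0). Mir92-1, the last precursor, was counted at 2456 CPM in replicate 2 and 2263 CPM in replicate 1, a mean of 2359 ± 136 CPM, or 6.65% ± 0.24 of the cluster. Both genes were thus counted below the miR-17 pair in both libraries and far above the miR-19 pair.

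The miR-19 family members were counted least. Mir19a had 235 counts (50.2 CPM) in replicate 2 and 231 counts (46.2 CPM) in replicate 1, a mean of 48.2 ± 2.87 CPM. Mir19b-1 had 101 counts (21.6 CPM) in replicate 2 and 84 counts (16.8 CPM) in replicate 1, a mean of 19.2 ± 3.39 CPM. The pair together reached 67.4 ± 6.26 CPM. Mir19a made up 0.136% and Mir19b-1 0.0538% of the cluster's counts on average, and they ranked 235th and 272nd of all genes.

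**Figure D1:**
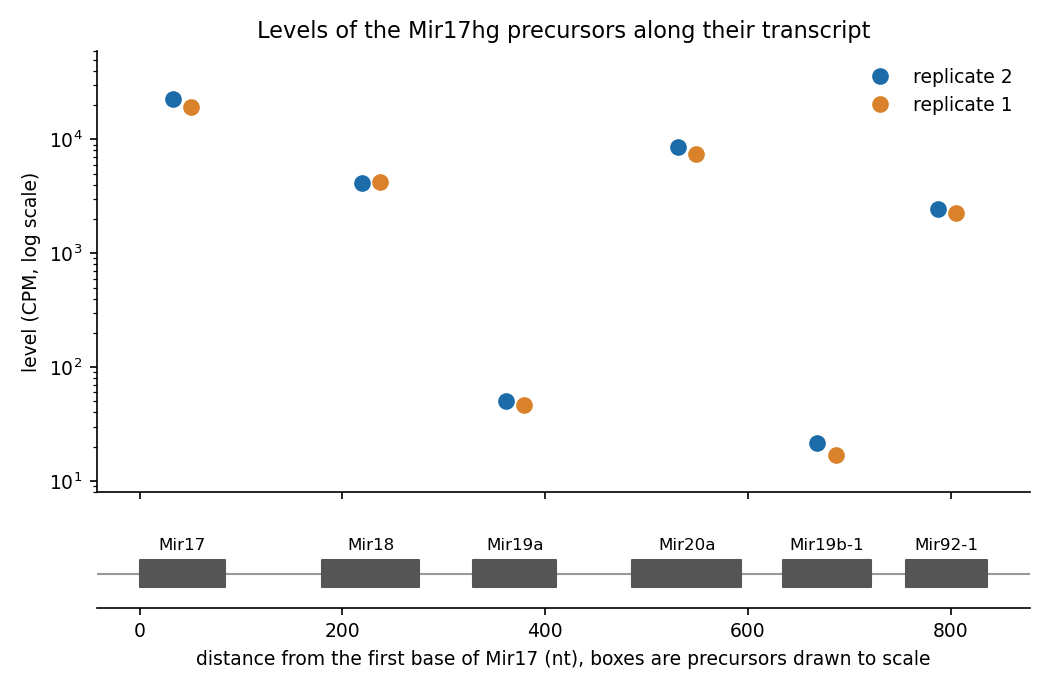
Level of the short reads counted for each Mir17hg precursor, in CPM (log scale, 1 point per library, replicate 2 left of replicate 1). Points stand at the precursor's place along the transcript, in nt from the first base of Mir17, with the precursors drawn to scale below. Mir19a and Mir19b-1, the third and the fifth precursor, stand at 16.8 to 50.2 CPM between neighbours of 2263 CPM or more.

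The order of counted levels was Mir17, Mir20a, Mir18, Mir92-1, Mir19a and Mir19b-1 in both libraries. Every neighbouring pair in that order differed by more than the spread between the libraries. That spread does not show reads lost in both libraries. Mir92-1 and Mir19b-1 have mature strands that occur at several loci, so the steps that involve them are uncertain. The ratio of Mir17 over Mir20a was 2.65 in replicate 2 and 2.57 in replicate 1, a log2 ratio of 1.38 ± 0.03 (SD, n = 2). Mir20a exceeded Mir18 by a log2 ratio of 0.92 ± 0.16, and Mir18 exceeded Mir92-1 by 0.84 ± 0.10. The widest step lay between Mir92-1 and Mir19a, at 48.9-fold in replicate 2 and 49.0-fold in replicate 1. Mir19a exceeded Mir19b-1 2.33-fold in replicate 2 and 2.75-fold in replicate 1, a log2 ratio of 1.34 ± 0.17.

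From the highest to the lowest member, Mir17 over Mir19b-1, the ratio was 1048-fold in replicate 2 and 1140-fold in replicate 1, a log2 ratio of 10.09 ± 0.09. Mir17 over Mir19a was 451-fold in replicate 2 and 415-fold in replicate 1. These ratios come from within a library and are unaffected by scaling, but an error that both libraries share would not show in their SD. No test was made on them, because an exact sign permutation test over 2 libraries gives a two-sided p of 0.5 at the least.

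Position along the transcript did not order the levels. Reading 5′ to 3′, the mean level went high at Mir17, lower at Mir18, to its second lowest at Mir19a, high again at Mir20a, to its lowest at Mir19b-1, and up at Mir92-1. The hairpins were alike in base composition, with a GC content of 43.7% for Mir19b-1 to 47.5% for Mir92-1. Their predicted minimum free energies ran from -29.2 kcal/mol for Mir18 to -38.7 kcal/mol for Mir19a, and Mir20a (-38.6), Mir19b-1 (-37.8), Mir17 (-36.7) and Mir92-1 (-34.0) lay between them. Per nucleotide, the energy was lowest for Mir19a at -0.472 kcal/mol, followed by Mir17 at -0.437 and Mir19b-1 at -0.434. Mir92-1 had -0.425, Mir20a -0.361 and Mir18 -0.304 kcal/mol per nucleotide, the annotated hairpins being of unequal length. The part of hairpin stability in the levels was not tested.

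For Mir19b-1 and Mir92-1 the level is uncertain because the mature strand occurs at a second locus, and the tables count no read that maps to several places for any gene. The hairpins of these genes and of their copies on chromosome X are shown with the longest shared run in capitals.
Mir19b-1, chr14:115044305-115044391, plus strand: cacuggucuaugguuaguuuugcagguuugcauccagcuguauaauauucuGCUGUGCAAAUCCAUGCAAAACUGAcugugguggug
Mir19b-2, chrX:52741983-52742066, minus strand: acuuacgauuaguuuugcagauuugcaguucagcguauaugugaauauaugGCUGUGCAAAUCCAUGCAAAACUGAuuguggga
Mir92-1, chr14:115044427-115044506, plus strand: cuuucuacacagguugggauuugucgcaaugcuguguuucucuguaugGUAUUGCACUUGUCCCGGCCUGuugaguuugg
Mir92-2, chrX:52741838-52741928, minus strand: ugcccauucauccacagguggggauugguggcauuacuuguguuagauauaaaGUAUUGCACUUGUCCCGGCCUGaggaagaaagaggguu
In Mir19b-1 the shared run is 25 nt long and ends with the last base of the 23 nt miR-19b-3p. In Mir92-1 it is 22 nt long and ends with the last base of the 21 nt miR-92a-3p. A read of exactly the mature strand therefore matches both hairpins of a pair, and a read that runs past its 3′ end along the genome matches 1 of them.

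The other 4 members share no such run. Their longest run in common with any other annotated miRNA precursor was 13 nt for Mir17 and Mir19a and 17 nt for Mir18 and Mir20a, all under the 20 nt taken here as shared sequence. Reads that map to several places numbered 2263676 in replicate 2 and 2437052 in replicate 1, 12.8 times and 14.7 times the counts of the whole cluster, and the tables do not say to which loci they belong. The listed mature strand of Mir19a occurs in 1 annotated precursor, but it differs from miR-19b-3p at 1 base and the aligner is not given, so a loss of its reads to the several-places class was not tested. In a comparison added after seeing the data, among the 4 members without shared sequence, the highest over lowest ratio was 432-fold (log2 ratio 8.76 ± 0.09). With the counts of Mir19b-2 and Mir92-2 added to those of Mir19b-1 and Mir92-1, the highest over lowest ratio was 952-fold. That sum does not recover the reads that map to several places, which belong to no gene.

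Set against all loci with the same seeds, Mir17hg supplied most counts of each of the 4 families. It held 68.3% ± 2.4 of the counts of the miR-17 family, where Mir93 (6859.9 ± 418 CPM) and Mir106b (6419 ± 434 CPM) of chromosome 5 supplied nearly all the rest, and 1 of the 7 listed genes, Mir6383, had 0 counts in both libraries. It held 99.8% ± 0.030 of the miR-18 family and 96.0% ± 0.78 of the miR-19 family. The miR-19 share rests on 348 counts in replicate 2 and 330 in replicate 1, with 95% exact binomial intervals of 94.1 to 98.2% and 92.6 to 97.4%. Of the miR-92 family, Mir17hg held 64.5% ± 0.25. Mir25 had 788 ± 26.2 CPM, Mir92b 263 ± 36.1 CPM and Mir32 178 ± 4.41 CPM. The miR-19 and miR-92 shares leave out reads of the strands that occur at several loci.

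**Figure D2:**
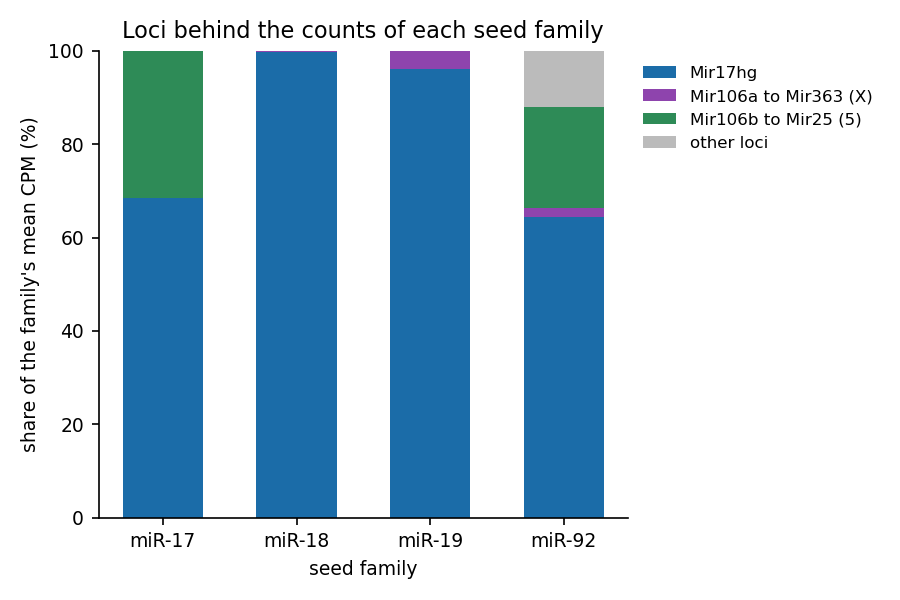
Share of each seed family's mean CPM (%, stacked bars from 0 to 100) that was counted at Mir17hg, at the related clusters on chromosomes X and 5, and at other loci. As the mean of the shares in each library, Mir17hg holds 68.3% of the miR-17 family and 99.8% of the miR-18 family. It holds 96.0% of the miR-19 family and 64.5% of the miR-92 family.

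The related cluster on chromosome X, from Mir106a to Mir363, repeats most members of Mir17hg in the same order and totalled 130 ± 13.3 CPM. The cluster on chromosome 5, from Mir106b to Mir25 in an intron of Mcm7, totalled 14067 ± 10.3 CPM. Matched by position, Mir17 exceeded Mir106a 670-fold in replicate 2 and 840-fold in replicate 1. Their mature 5p strands differ at 1 of 23 bases. Mir18 exceeded Mir18b 575-fold in replicate 2 and 463-fold in replicate 1. Mir20a exceeded Mir20b 374-fold in replicate 2 and 448-fold in replicate 1. Mir106a, Mir18b and Mir20b rest on 34 to 158 counts a library. The part of misplaced reads of their counterparts in these counts was not tested.

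The pairs that share their mature strand stood closer together. Mir92-1 exceeded Mir92-2 50.8-fold in replicate 2 and 49.9-fold in replicate 1. Mir19b-1 exceeded Mir19b-2 8.42-fold in replicate 2 and 5.60-fold in replicate 1, and Mir19b-2 rests on 12 counts in replicate 2 and 15 in replicate 1. The part of shared reads in these smaller ratios was not tested. Within the X cluster, as within Mir17hg, the miR-19 member was the lowest, Mir19b-2 at 2.78 ± 0.31 CPM, but the highest was Mir92-2 at 46.8 ± 2.07 CPM and not the miR-17 member. Against chromosome 5, Mir17 exceeded Mir106b 3.70-fold in replicate 2 and 2.84-fold in replicate 1, and Mir20a exceeded Mir93 1.19-fold in replicate 2 and 1.13-fold in replicate 1.

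**Figure D3:**
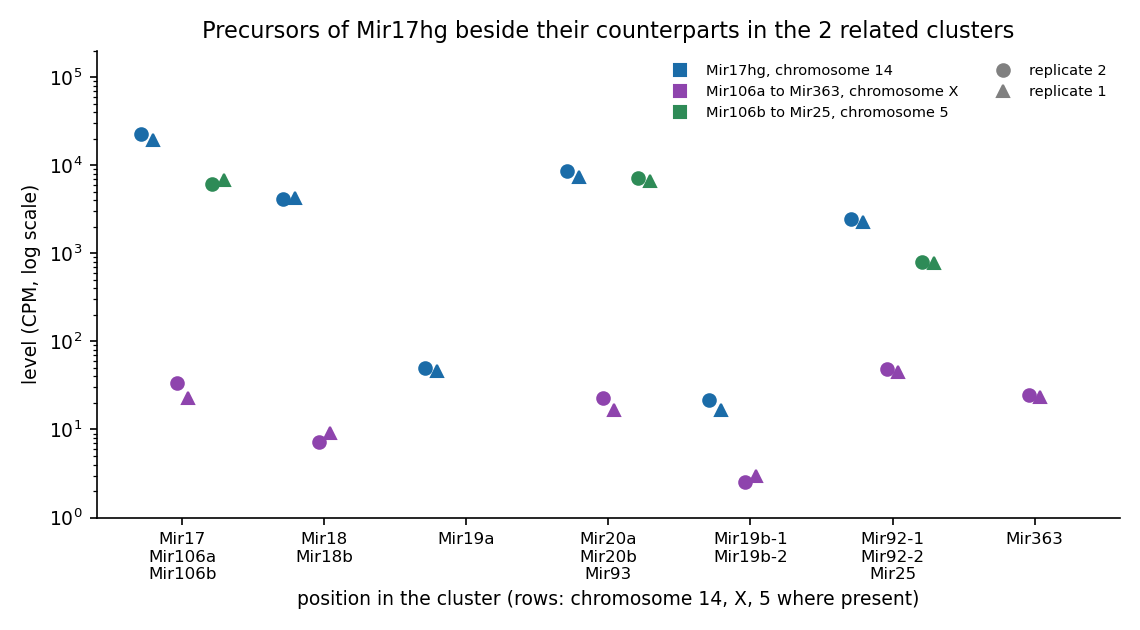
Level of the short reads counted for each precursor, in CPM (log scale, circles for replicate 2 and triangles for replicate 1). Precursors are grouped by position in the cluster, with Mir17hg left of the clusters on chromosomes X and 5. Mir17, Mir18 and Mir20a stand 374-fold to 840-fold above their counterparts on X, against 5.60-fold to 50.8-fold for Mir19b-1 and Mir92-1.

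The spread of levels within Mir17hg was set beside that of other miRNA polycistrons, taken as counted genes of 1 strand with gaps of at most 10 kb and 3 or more detected members. Of 13 such chains, Mir17hg had the third widest ratio of highest over lowest mean level, at 1088-fold. The other 12 ran from 3.69-fold for the Mir182 chain to 3249-fold for the Mir127 chain on chromosome 12, with a median of 51.8-fold. The chains above Mir17hg have more detected members, 11 in the Mir127 chain and 31 in the Mir411 chain. The Mir322 chain on the X chromosome, with 7 detected members, came next at 1062-fold, and the chromosome 5 relative of Mir17hg had 8.71-fold over 3 members. Since a member needed 10 counts in both libraries, a chain of low level could not show a wide ratio, and among the other chains of 1000 CPM or more in total the median was 87.6-fold. With gaps of at most 3 kb or 50 kb Mir17hg again ranked 3, beside medians of 53.9-fold and 27.8-fold for the others. Without genes that share sequence it ranked 2 of 10, at 433-fold beside a median of 17.9-fold. These comparisons were added after seeing the data.

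**Figure D4:**
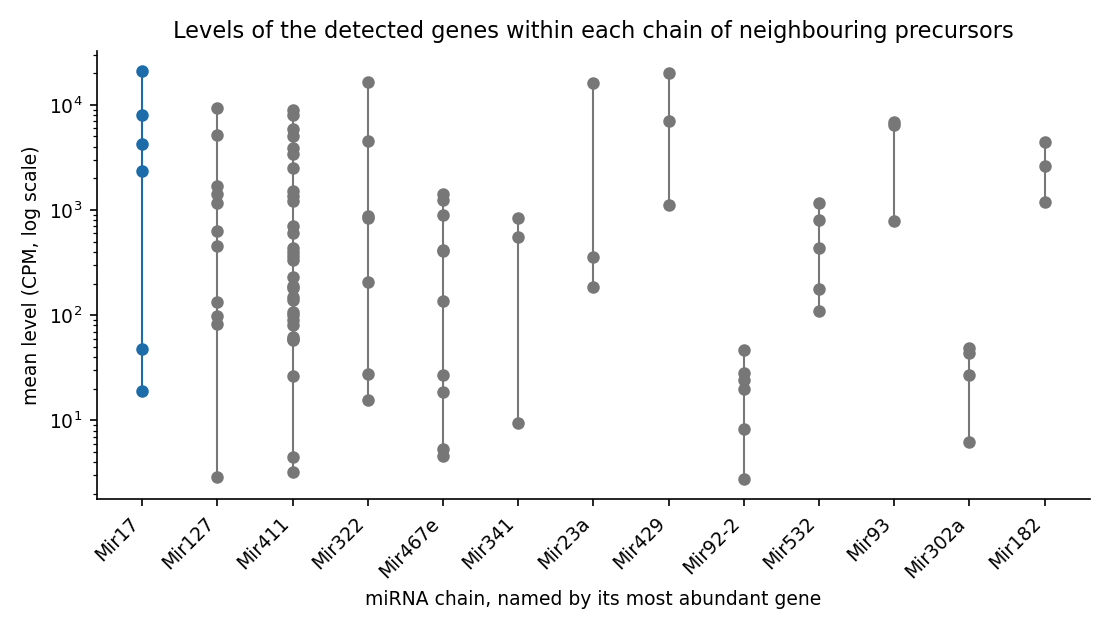
Mean level in CPM (log scale) of each detected gene in the 13 chains of neighbouring precursors, with Mir17hg first and the others ordered by their ratio of highest over lowest level. Lines join the lowest and the highest gene of a chain, and Mir17hg runs from 19.2 to 20880.1 CPM.

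The libraries were compared gene by gene with a two-sided exact binomial test that conditions on the summed count of both, with Benjamini-Hochberg adjustment over all 361. It sets these libraries against counting noise and not conditions against each other. At an adjusted p under 0.05 combined with a log2 ratio of at least 1 in either direction, 0 of the 6 precursors differed, against a background of 1.11% of all detected genes. By adjusted p alone 3 of the 6 differed, all higher in replicate 2, where 42.1% of all detected genes differed and 24.7% were higher in replicate 2. By unadjusted p under 0.05 the exact binomial test also gave 3 of the 6, and 49.3% of all detected genes. Without regard to direction, both counts of 3 lie near the share over all detected genes. Taken as higher in replicate 2, 3 of the 6 is above the share of 24.7%.

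Mir17 was higher in replicate 2 by a log2 ratio of 0.24 (95% interval 0.23 to 0.25, exact binomial adjusted p = 1.38e-307). Mir20a had a log2 ratio of 0.20 (0.18 to 0.22, exact binomial adjusted p = 1.05e-81) and Mir92-1 of 0.12 (0.08 to 0.16, exact binomial adjusted p = 3.58e-09). Mir18, with a log2 ratio of -0.03, did not pass (exact binomial adjusted p = 0.102). Mir19a and Mir19b-1 had log2 ratios of 0.12 and 0.36, with wide intervals of -0.15 to 0.39 and -0.07 to 0.80 at their low counts. The median of the 6 was 0.16, beside 0.04 over all detected genes, and the SD over the 196 genes of 100 CPM or more was 0.20.

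The counting intervals of Mir17 and Mir20a thus lay above that of Mir18, which is placed between them on the transcript and had an interval of -0.06 to 8.34e-05. With edgeR's TMM factors Mir18 had a log2 ratio of -0.07 and passed the adjusted p alone as lower in replicate 2 (adjusted p = 1.12e-06 by the exact binomial test), and with DESeq2's size factors it had -0.06 (exact binomial adjusted p = 3.56e-05). Between the same libraries, the sum of the erythroid markers was 218 CPM in replicate 2, against 151 CPM in replicate 1. That of the smooth muscle markers was 146512 CPM in replicate 2, against 164146 CPM in replicate 1, and that of the epithelial markers 41482 CPM in replicate 2, against 41439 CPM in replicate 1. The other marker totals had log2 ratios of -0.25 for Mir375 and for intestine, -0.21 for striated muscle and -0.17 for endothelium. Stratified epithelium had -1.5e-05, leukocytes 0.10, mesenchyme 0.12, neural markers 0.13 and liver 0.21. Within the erythroid sum, Mir451a (log2 ratio 0.67) was higher in replicate 2 (exact binomial adjusted p = 2.34e-18). Mir144 (-0.42) did not pass by the exact binomial test (adjusted p = 0.0853). Neither did Mir486 (0.51), with 24 counts in replicate 2 and 18 in replicate 1 (exact binomial adjusted p = 0.413). Within the epithelial sum, Mir200c (0.16) was higher and Mir429 (-0.10) lower in replicate 2 by adjusted p. Mir200a (0.06), Mir200b (0.01) and Mir141 (-0.02) did not pass. The part of cell composition in the ratios of the precursors was not tested.

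**Figure D5:**
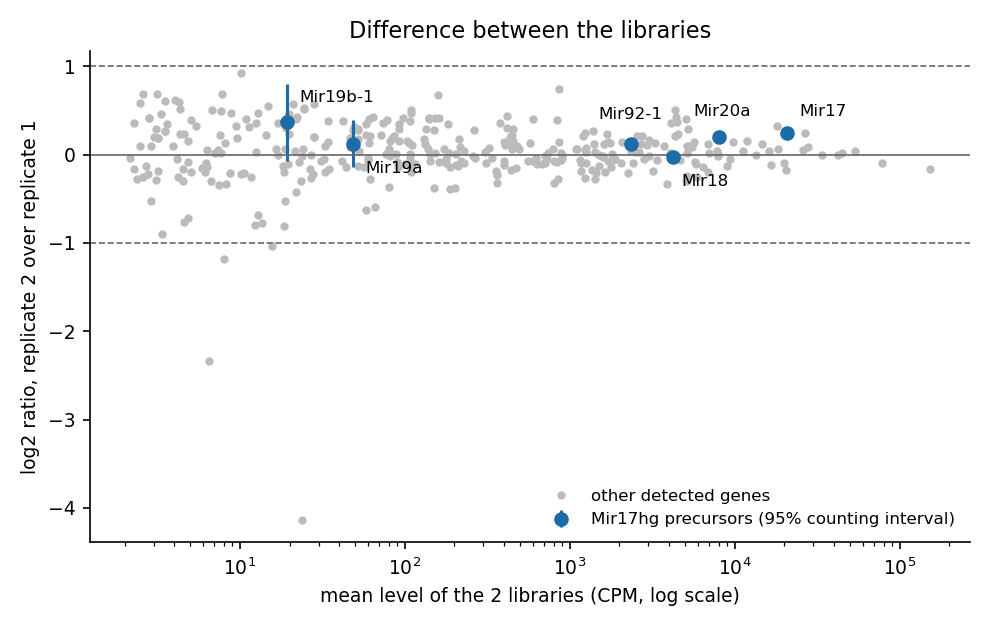
Log2 ratio of replicate 2 over replicate 1 against the mean level in CPM (log scale) for the 361 detected genes, with the Mir17hg precursors in blue and their 95% counting intervals. The dashed lines mark a log2 ratio of 1 in either direction, and the 6 precursors lie between -0.03 and 0.36.

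By level, the genes ranked next to the members were of many kinds. Mir17 stood between Mir130a (25832 ± 642 CPM) and the endothelial Mir126a (20389 ± 1732 CPM), and its own SD of 2469 CPM reaches the second. Mir20a stood between Mir411 and Mir487b, Mir18 between Mir342 and Mir181d, and Mir92-1 between Mir22 and Mir361. Mir19a lay between Mir302a (48.4 ± 6.53 CPM), a miRNA of pluripotent cells, and Mir92-2, and differed from both by less than its own SD. Mir19b-1 lay between Mir669f and Mir34b (18.96 ± 2.80 CPM), but Mir669f had 37.6 CPM in replicate 2 and 0.999 CPM in replicate 1. The log2 ratio between the libraries, replicate 2 over replicate 1, was 0.19 for the Mir17hg total. Of 187 other genes at or above 100 CPM, the nearest to it were Mir501 (0.20), Mir222 (0.18) and Mir330 (0.18). This likeness is over 2 libraries and describes them only.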

How the data were processed

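MicroRNA sequencing tables of 2 libraries from embryonic stomach were used. The authors deposited whole-number counts for each gene in 3 columns without names, derived from an alignment on mm10 with GENCODE M4 per the file text beside them. Which aligner and counter were run is not given in the sources. From the values, the last pair of columns holds the strands separately and sums to the first for every gene, and the first was used. Lines that name no gene held 13.0% ± 0.72 unmapped reads, 27.6% ± 0.28 reads with several places, 2.41% ± 0.12 reads outside genes and 0 ambiguous reads, and stayed out of all totals. Symbols and coordinates came from GENCODE M21, found for 1894 of 1973 genes, and sequences from RefSeq on GRCm38.p6.

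CPM is the count over the gene total times 1000000, as mean ± SD of 2 libraries. With 1 group, edgeR's quasi-likelihood test has no contrast, so libraries were compared by an exact binomial test (scipy 1.17.1), which was tested on simulated counts. Scaling by edgeR 4.0.16 and DESeq2 1.42.0 over the detected genes, the own-strand column, a count minimum of 1, added gene copies and single libraries were tried as alternatives. Folding used RNAfold 2.7.2 at its default settings. Shared sequence means 20 nt or more in common with another GENCODE M21 precursor. The genes named are the 6 precursors, their relatives by cluster and seed, the next genes by level and the 3 with the nearest library ratio. The members and lists were chosen with earlier results of these data known. The p-values set the difference between these libraries against counting noise.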

Additional observations from a re-analysis of the deposited data

How the results depend on the processing

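No paired analysis was possible because there is 1 group. The summed level of the Mir17hg precursors, 35515 CPM, was 56474 CPM with totals that leave out the 5 most abundant genes and 23912 CPM with reads that map to several places added to the total. Both follow from the smaller and the larger denominator. It stayed within 1 SD with TMM factors, size factors, the own-strand column and added gene copies, and ran from 33155 to 37875 CPM with 1 library left out. These alternatives could hardly move the mean by 1 SD. The factors shift the libraries in opposite directions, and the opposite strand holds 2.73% of all gene counts in replicate 2 and 2.75% in replicate 1. The added copies, Mir92-2 and Mir19b-2, have 46.8 and 2.78 CPM. The log2 ratio of the highest over the lowest member, 10.09, was 9.89 with gene copies added and 8.76 without the members that share sequence, which removes the lowest one, and ran from 10.03 to 10.15 with 1 library left out. Past both thresholds 0 precursors differed between the libraries under all 5 alternatives, where 4 to 7 of all tested genes did. By adjusted p alone 4 precursors differed with the other scalings, beside 164 to 166 of all 361 genes. With the own-strand column 3 did, beside 143 of 351 genes, and with a minimum of 1 count 3 did, beside 150 of 605 genes. Scaling shifted every log2 ratio by at most -0.05. Among all detected genes the split by adjusted p, 89 higher in replicate 2 against 63 higher in replicate 1, became 75 against 89 with TMM factors, 79 against 86 with size factors and 74 against 92 without the 5 most abundant genes. The log2 ratio of Mir19b-1 over Mir17 went to -9.89 with its copy added, and that of Mir92-1 to -3.11. Adding copies does not recover reads that map to several places. No other alternative could move a ratio over Mir17 by 1 SD: with 2 libraries, leaving out 1 stays within it, and the members have 0 counts on the opposite strand. Depth limits the miR-19 members most, with 84 to 235 counts a library. An error common to both libraries cannot be seen with these tables.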
